A study of Rattus norvegicus with 86 samples.

Results

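Chaperone genes of the heat shock and ER stress responses were followed through RNA-Seq libraries of the rat nucleus accumbens core, part of the ventral striatum and of the brain's reward circuit. They were chosen by gene identifier: Hspa5 (ENSRNOG00000018294), Hspa8 (ENSRNOG00000034066), Hspb1 (ENSRNOG00000023546) and Hspa1b (ENSRNOG00000050647), that is 4 of the 17180 genes in the table, and all 4 were present. The rats were Heterogeneous Stock (HS) rats, outbred animals descended from inbred founder strains, kept in groups and given no drug and no behavioral test. Each library came from the bilateral tissue of 1 rat, and the labels give its sex and a rat batch number, without saying what a rat batch is and without an age. The table held 75 libraries, 38 from females and 37 from males, after the authors had removed 11 of 86 samples. Females and males numbered 2 and 10 in rat batch 2, 13 and 7 in batch 3, 14 and 12 in batch 4, and 8 and 8 in batch 6, while batch 5 was 1 female. No transgene, lesion or drug separated the groups. Each rat is referred to by its sex, its batch and a running number.

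Values are log2(scaled count + 1), where a scaled count is the estimated number of reads of a gene after the authors' upper-quartile scaling of the libraries. The total count per library, recovered from the rounding of the scaled counts, ran from 8455361 to 26145108. Scaled counts were not divided by transcript length, so each gene is compared only with itself between rats, and no order of levels between the genes is drawn. The table names genes by identifier alone and these were not paired with symbols, so the region was not checked against its marker genes and the other chaperones were not followed. In tissue of mixed cells, fewer cells of a type and less RNA per cell cannot be told apart.

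Chaperones of the HSP70 family bind exposed hydrophobic stretches of unfolded proteins and release them in an ATP-driven cycle. Hspa8 encodes the constitutive cytosolic member, which in neurons also strips clathrin from endocytosed vesicles, and Hspa1b encodes a stress-inducible one. Hspa5 encodes BiP, the HSP70 chaperone of the endoplasmic reticulum (ER) and a target of the unfolded protein response. Hspb1 encodes the small heat shock protein Hsp27, which holds unfolded proteins without ATP. Heat shock factor 1 activates the cytosolic genes through heat shock elements, which are repeats of GAA in alternating orientation, whereas the ER genes respond to the unfolded protein response through an ER stress element. Hspa1b has a near-identical neighbour, Hspa1a, and Hspa8 has many processed pseudogenes, so the read counts of both are uncertain where reads were shared.

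The promoters are shown because the genes are textbook targets of these 2 pathways and their co-variation between rats was measured. RefSeq promoter sequences on GRCr8 were matched by symbol for 3 of the 4 genes. The first entry of each symbol was taken, with its start as annotated, and that start was not checked in these libraries. The 250 bases upstream of the start of each gene are given 5′ to 3′ on the strand of the gene, with matches to the heat shock and ER stress elements in capitals. They lie at chr3:38452766-38453015 (plus strand) for Hspa5, at chr8:50080264-50080513 (plus strand) for Hspa8 and at chr12:26432302-26432551 (minus strand) for Hspb1.
Hspa5: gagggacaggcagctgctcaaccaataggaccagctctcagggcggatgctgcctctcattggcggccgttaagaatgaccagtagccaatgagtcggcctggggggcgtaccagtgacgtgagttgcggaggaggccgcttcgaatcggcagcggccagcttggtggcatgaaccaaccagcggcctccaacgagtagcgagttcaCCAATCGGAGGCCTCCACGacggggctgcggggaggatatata
Hspa8: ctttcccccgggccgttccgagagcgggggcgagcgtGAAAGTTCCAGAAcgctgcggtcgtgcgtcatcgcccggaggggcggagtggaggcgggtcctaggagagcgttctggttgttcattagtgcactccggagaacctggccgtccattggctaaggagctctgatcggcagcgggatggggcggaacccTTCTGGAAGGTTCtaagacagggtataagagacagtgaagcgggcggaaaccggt
Hspb1: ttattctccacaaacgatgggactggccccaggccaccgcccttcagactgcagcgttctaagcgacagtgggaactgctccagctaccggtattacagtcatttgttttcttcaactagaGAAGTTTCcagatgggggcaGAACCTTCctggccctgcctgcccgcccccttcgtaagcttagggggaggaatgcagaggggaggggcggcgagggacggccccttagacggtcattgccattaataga

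Motifs were searched on both strands in 300 bases, the 250 shown and the first 50 of the gene. The heat shock element was searched with 2 units, GAANNTTC or TTCNNGAA, and with 3 units, GAANNTTCNNGAA or TTCNNGAANNTTC, every one of which also holds the 2-unit form. The ER stress element was searched as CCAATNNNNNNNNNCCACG, and the CCAAT box, with which it begins, as CCAAT. Of 33469 promoters, 15.9% held a 2-unit heat shock element, 0.798% a 3-unit one, 0.0657% an ER stress element and 37.5% a CCAAT box. The Hspa8 promoter held 3-unit heat shock elements at positions -213 to -201 (GAAAGTTCCAGAA) and -55 to -43 (TTCTGGAAGGTTC), counted back from the start. That of Hspb1 held 2-unit elements at positions -129 to -122 (GAAGTTTC) and -109 to -102 (GAACCTTC). In the Hspa5 promoter the ER stress element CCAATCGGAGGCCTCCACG was found at positions -43 to -25, and neither form of the heat shock element was. CCAAT boxes, left in lower case outside that element, began at positions -229, -192, -164 and -43 for Hspa5 and at -99 for Hspa8, and none was found for Hspb1. These matches are descriptions of sequence only.

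The first question was how strongly each gene was expressed and how much it varied between rats. Hspa5 and Hspa8, the ER chaperone and the constitutive cytosolic one, lay within a narrow range, whereas Hspa1b spanned nearly 2 orders of magnitude and Hspb1 lay between them. The scaled count of Hspa5 had a lowest value of 4164, a median of 7116 and a highest of 11104, a 2.67-fold range over 75 rats. For Hspa8 the lowest was 6985, the median 10265 and the highest 13893, a 1.99-fold range. The recovered count was at least 3282 for Hspa5 and 3669 for Hspa8 in every library.

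Hspb1 ran from 52 through a median of 126 to 301, a 5.79-fold range. Hspa1b ran from 7 through a median of 93 to 689, a 98.4-fold range. Its quartiles lay at log2 values of 5.75 and 7.85. The lowest scaled count of Hspa1b, 7, was reached by male 7 of rat batch 4 and by female 6 of rat batch 6, and the highest by female 5 of rat batch 4. No rat lacked reads of the inducible gene, and the recovered count was at least 7 in every library. The mean log2 value was 12.77 ± 0.28 for Hspa5, 13.32 ± 0.22 for Hspa8, 6.98 ± 0.61 for Hspb1 and 6.60 ± 1.50 for Hspa1b (SD, n = 75).

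**Figure D1:**
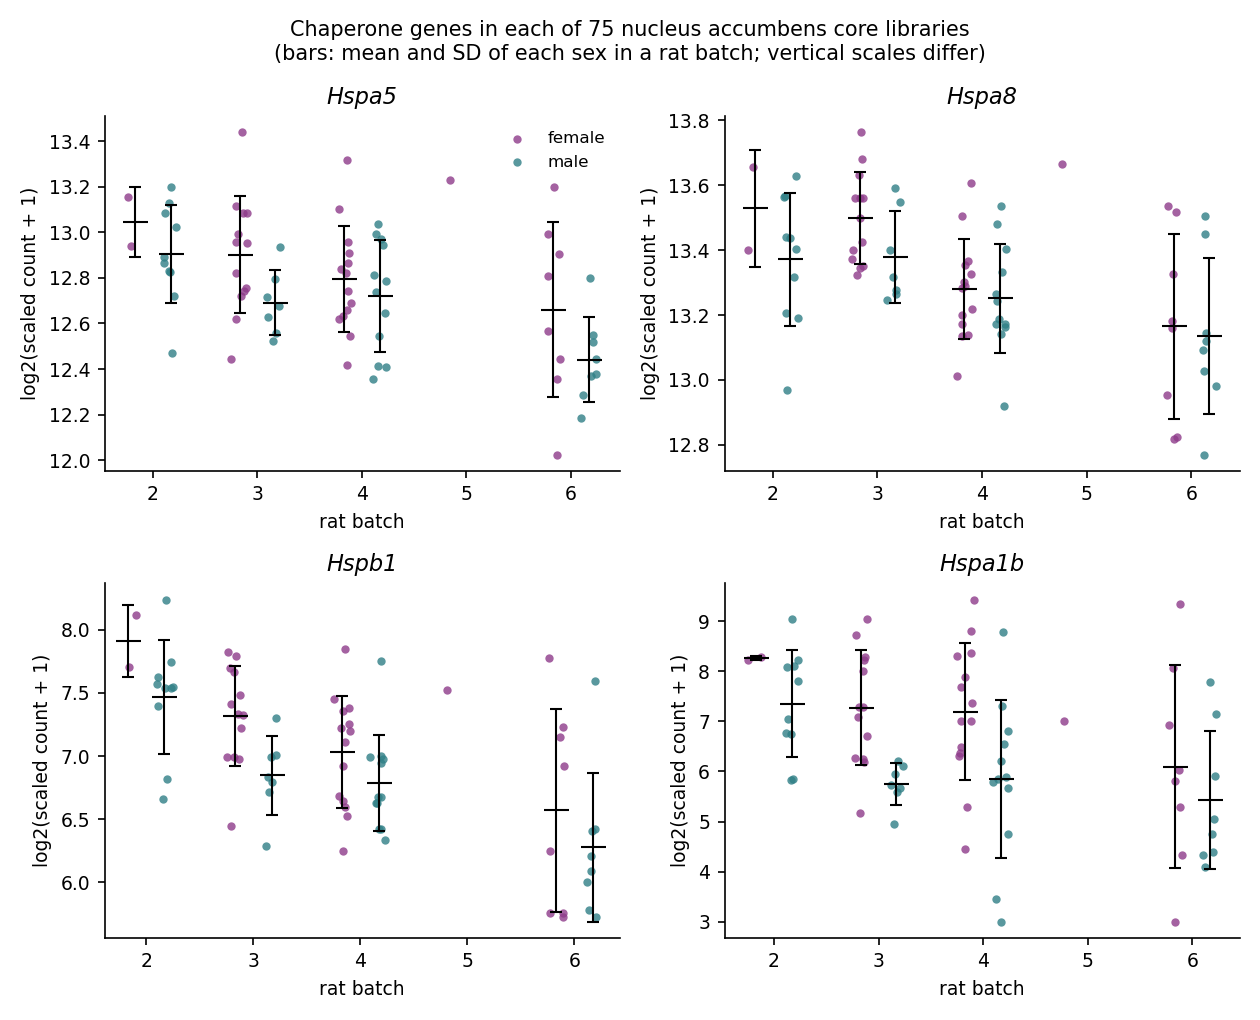
Log2(scaled count + 1) of each gene in each of 75 libraries, by rat batch and sex, with the mean and SD of each sex in a batch where it has more than 1 rat. Vertical scales differ between panels: Hspa1b covers values from 3.00 to 9.43, Hspa8 from 12.77 to 13.76.

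The spread was then taken within groups, as the SD of the log2 values after the mean of each sex and rat batch was removed. Over the 74 rats of batches 2, 3, 4 and 6, it was 0.25 for Hspa5, 0.19 for Hspa8, 0.48 for Hspb1 and 1.35 for Hspa1b. One SD of Hspa1b thus corresponded to 2.55-fold, against 1.14-fold for Hspa8. Since genes with few reads spread more, each SD was set beside those of genes with a mean log2 value within 0.5 of its own.

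Hspa1b stood at percentile 98.8 of 1368 such genes, whose median SD was 0.32, and 16 of them had a larger SD. Hspa5 stood at percentile 93.7 of 381 genes with a median SD of 0.14. Hspb1 was at percentile 91.5 of 1588 genes with a median of 0.28, and Hspa8 at percentile 84.9 of 199 genes with a median of 0.14. All 4 genes were thus more variable than the median gene of like level, the constitutive gene least so by this measure. The SD that counting reads would give alone was 0.20 for Hspa1b and 0.14 for Hspb1, or 2.28% and 8.21% of their variance. For Hspa5 and Hspa8 it was 0.54% and 0.62% of the variance. According to the paper, samples were removed for low read counts, for genotypes that did not match, or as expression outliers. The labels do not say which reason held for a sample. How the removal bears on these SDs was not tested.

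**Figure D2:**
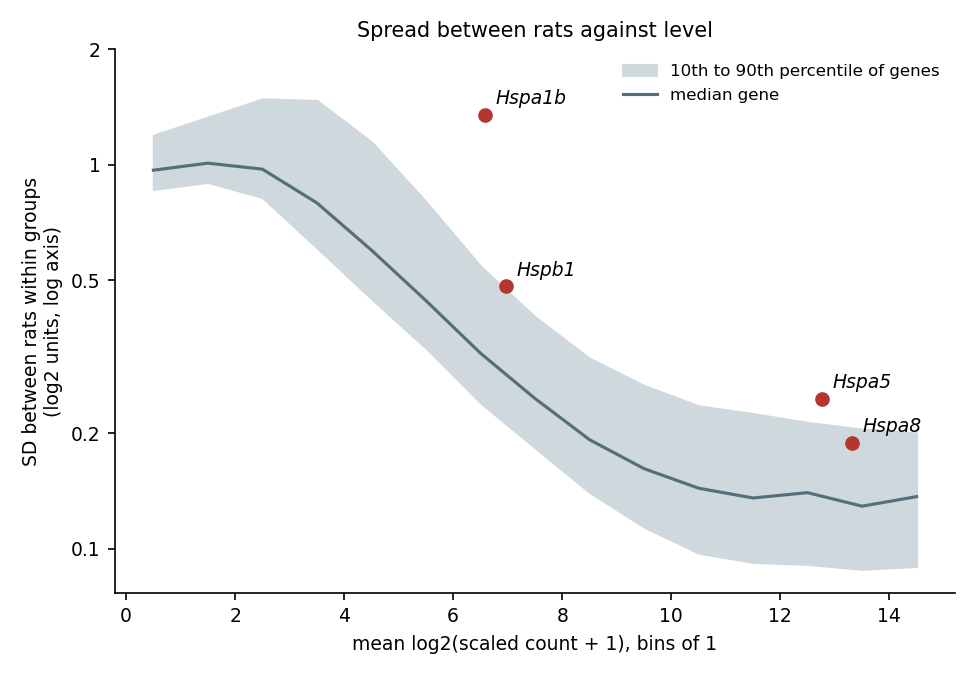
SD of log2 values between rats within sex and rat batch groups (vertical log axis) against the mean log2(scaled count + 1), for the 4 genes (points) and for all genes in bins of 1 (line, median gene; band, 10th to 90th percentile). Hspa1b, at an SD of 1.35, lies far above the band.

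The spread differed in size between rat batches and had its highest value in rat batch 6 for all 4 genes, a difference that was not tested. For Hspa5 the SD was 0.21, 0.23, 0.24 and 0.30 in batches 2, 3, 4 and 6. For Hspb1 it was 0.43, 0.37, 0.42 and 0.70. For Hspa1b it was 1.01, 0.96, 1.46 and 1.73. Hspa8 had its lowest SD, 0.14, in batch 3 and its highest, 0.26, in batch 6.

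The second question was whether the genes shifted between rat batches. All 4 did, and every contrast of 2 batches that was called was lower in the higher-numbered batch, by up to 1.35-fold for Hspa5 and up to 4.40-fold for Hspa1b. The limma moderated F test over the 4 batches, with sex as a covariate and adjustment over all genes, gave adjusted p = 0.000628 for Hspa5, 8.90e-05 for Hspa8, 3.90e-07 for Hspb1 and 0.00295 for Hspa1b. The background was high: 53.5% of all genes passed the same test, so 4 of 4 is not a result about chaperones. All 4 calls were lost, at adjusted p from 0.119 to 0.651, with a covariate for the column run, the stretch of consecutively ordered columns of the table in which a library stands. Permuting the rat batch within each sex 100000 times gave p = 0.00023 for Hspa5, 1e-05 for Hspa8, 1e-05 for Hspb1 and 0.00153 for Hspa1b, where 1e-05 is the smallest value that these permutations can give. With the log2 total count of the library as a further covariate, the limma adjusted p was 0.00136, 0.000279, 1.82e-06 and 0.00501 in the same order. After sex, rat batch took up 39.1% of the variance of Hspb1, 28.3% of that of Hspa8, 23.0% of that of Hspa5 and 18.0% of that of Hspa1b.

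Hspb1 shifted with the smallest adjusted p. Its scaled count had a lowest value of 100, a median of 187.5 and a highest of 301 in batch 2. In batch 3 the lowest was 77 and the highest 225, around a median log2 value of 7.12, and batch 4 ran from 75 through 121 to 229. Batch 6 ran from 52 through 74 to 218. The median of batch 6 lay below every rat of batches 2, 3 and 4, although the ranges overlapped. Male 4 of rat batch 6, at a log2 value of 7.59, stood apart from the other 7 males of that batch. Batch 6 minus batch 2 was -1.23 on the log2 scale (standard error 0.18, limma adjusted p = 2.38e-07), a 2.34-fold lower level, and 34.8% of all genes were called in that pair. Hspb1 was the only one of the 4 called between batches 4 and 6, at -0.48 (standard error 0.15, limma adjusted p = 0.0457), in a pair where 3.87% of all genes were called. After quantile normalization that call was lost, at -0.48 with an adjusted p of 0.0501.

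Hspa1b had the widest shift in fold. Its scaled count ran from 56 through a median of 247 to 523 in batch 2, and from 30 through 75.5 to 529 in batch 3. In batch 4 it ran from 7 through 91 to 689, and in batch 6 from 7 through 46.5 to 650. The top of the range was thus similar in all batches while the lowest value was lower in batches 4 and 6, and the ranges overlapped throughout. The lower quartile of the scaled count was 107.5, 58.75, 54.75 and 19.75 in batches 2, 3, 4 and 6, so batches 3 and 4 were close there. Batch 6 minus batch 2 was -2.14 on the log2 scale (standard error 0.50, limma adjusted p = 0.000572), or 4.40-fold lower. Batch 4 minus batch 2 was -1.38 (standard error 0.46, limma adjusted p = 0.0201), in a pair where 26.9% of all genes were called. The other pairs were not called. Without rat batch 2 the F test of Hspa1b had an adjusted p of 0.220, so its call rests on that batch of 12 rats.

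For Hspa5 the scaled count ran from 5679 through a median of 7722.5 to 9408 in batch 2, and from 5575 through 7010.5 to 11104 in batch 3. In batch 4 it ran from 5245 through 6957.5 to 10217, and in batch 6 from 4164 through 5720 to 9391. The ranges overlapped, with the median of batch 6 the lowest. Batch 6 minus batch 2 was -0.43 on the log2 scale (standard error 0.09, limma adjusted p = 0.000197), or 1.35-fold lower. Batch 6 minus batch 3 was -0.25 (standard error 0.08, limma adjusted p = 0.00711), in a pair where 43.1% of all genes were called. Batch 4 minus batch 2 was -0.22 (standard error 0.09, limma adjusted p = 0.0412). Only the first of these 3 calls held after quantile normalization, with adjusted p = 0.00118, 0.0720 and 0.123. Leaving rat batch 6 out gave the F test of Hspa5 an adjusted p of 0.0677.

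For Hspa8 the scaled count ran from 8010 through a median of 10961.5 to 12899 in batch 2, and from 9719 through 10904 to 13893 in batch 3. In batch 4 it ran from 7746 through 9766 to 12468, and in batch 6 from 6985 through 8981 to 11872. The ranges overlapped, with the medians of batches 2 and 3 above those of batches 4 and 6. Batch 4 minus batch 2 was -0.16 on the log2 scale and was not called (limma adjusted p = 0.0686). Batch 3 minus batch 2 was 0.03 on the log2 scale, with a 95% confidence interval from -0.11 to 0.17. Batch 6 minus batch 3 was -0.30 (standard error 0.06, limma adjusted p = 6.33e-05) and batch 6 minus batch 2 was -0.27 (standard error 0.07, limma adjusted p = 0.00211). After quantile normalization both stayed called at smaller sizes, -0.18 (adjusted p = 0.00977) and -0.18 (adjusted p = 0.0301). Batch 4 minus batch 3 was -0.18 (standard error 0.05, limma adjusted p = 0.00527), in a pair where 39.8% of all genes were called, and after quantile normalization this difference was -0.08 with an adjusted p of 0.244.

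Over the 6 pairs of batches and the 4 genes, 12 of 24 contrasts were called, each of them lower in the higher-numbered batch. The contrasts share batches and the genes co-vary, so they are not 24 independent values. Of all genes, the share called lower in the higher-numbered batch was 1.96% for batches 2 and 3, 13.2% for 2 and 4, 17.9% for 2 and 6, 20.3% for 3 and 4, 22.3% for 3 and 6, and 1.4% for 4 and 6. After quantile normalization 8 of 24 were called. None of the 4 genes was called between batches 2 and 3, a pair with 3.44% of all genes called. The median log2 difference of all genes was within 0.02 of 0 in every pair, with and without quantile normalization. The female of rat batch 5, which entered no test, had the third highest scaled count of Hspa5, 9606, and of Hspa8, 12993, of the 75 rats. Its Hspb1, 183, ranked 18 and its Hspa1b, 128, ranked 30.

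**Figure D3:**
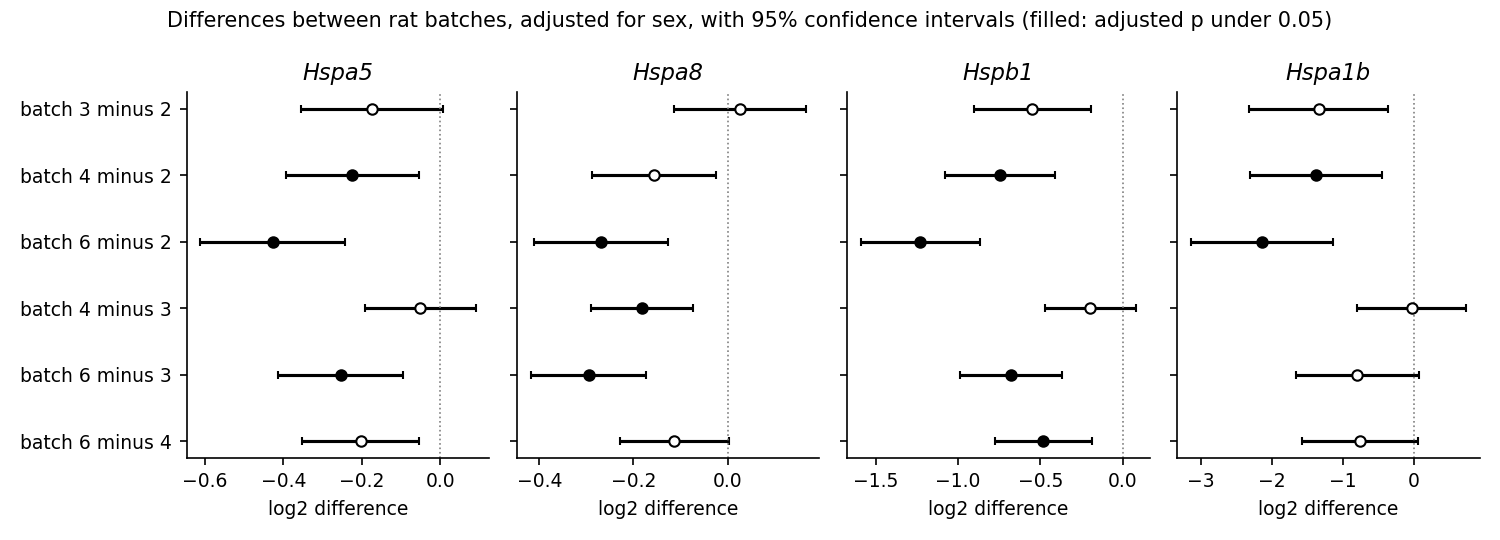
Log2 difference of each gene between pairs of rat batches, higher number minus lower, with sex as a covariate (points) and 95% confidence intervals (bars). Filled points have a limma adjusted p under 0.05: 12 of 24, all below 0. Horizontal scales differ between panels.

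Rat batch moved with the order of the columns in the deposited table. The columns fell into 3 runs of ascending rat identifiers, of 19, 12 and 44 libraries. Rat batch 2 lay in the first run, batches 4 and 6 in the third, and batch 3 in all 3, with 7, 12 and 1 libraries. What a run stands for is not stated. With the run as a further covariate, no member passed the batch test, at limma adjusted p = 0.221 for Hspa5, 0.651 for Hspa8, 0.119 for Hspb1 and 0.536 for Hspa1b, and the number of genes called fell from 9192 to 169.

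Within the first run, batch 3 minus batch 2 gave log2 differences of -0.22 for Hspa5, -0.01 for Hspa8, -0.58 for Hspb1 and -0.99 for Hspa1b. None of the 4 was called there with 12 against 7 rats, and neither was any other gene (0%), while 553 of 17180 genes had an unadjusted limma p under 0.05. Within the third run, batch 6 minus batch 4 gave -0.20, -0.11, -0.48 and -0.76, with limma adjusted p = 0.149, 0.319, 0.0910 and 0.390, while 2.6% of all genes were called and 3200 had an unadjusted p under 0.05. In the fit over all batches the first pair gave -0.17, 0.03, -0.55 and -1.34, and the other gave -0.20, -0.11, -0.48 and -0.76. Within rat batch 3, the second run minus the first gave 0.10 for Hspa5, 0.06 for Hspa8, -0.09 for Hspb1 and -0.64 for Hspa1b, none of them called (adjusted p from 0.363 to 0.798), where 11.1% of all genes were. Batch 2 shares no run with batches 4 and 6. For these contrasts only rat batch 3, with 1 library in the third run, separates rat batch from column run.

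The third question was whether the sexes differed. No member passed, and the estimates all pointed towards lower values in males. Hspa1b came nearest. Its scaled count ran from 7 through a median of 131.5 to 689 in females and from 7 through 59 to 523 in males, so the sexes overlapped over nearly the whole range. With rat batch as a covariate, males minus females was -1.19 on the log2 scale (standard error 0.32, limma adjusted p = 0.161 over all genes). The permutation test of sex within rat batch, two-sided and for this gene alone, gave p = 0.00049. By batch, the difference was -0.91 in batch 2, -1.52 in batch 3, -1.36 in batch 4 and -0.67 in batch 6, the male mean lying below the female mean in 4 of 4 batches.

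In rat batch 3 the 7 males lay between scaled counts of 30 and 73, whereas the 13 females ran from 35 through a median of 154 to 529. The female SD there was 1.14 on the log2 scale and the male SD 0.42. Both females of batch 2 were high, at 299 and 312. In batch 6 the 8 females ran from 7, the lowest value of all 75 rats, to 650, which was exceeded only by the 689 of female 5 of rat batch 4.

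For the other genes the log2 difference of males minus females was -0.34 for Hspb1 (standard error 0.11, limma adjusted p = 0.442), -0.15 for Hspa5 (standard error 0.06, limma adjusted p = 0.576) and -0.07 for Hspa8 (standard error 0.04, limma adjusted p = 0.878). The male mean lay below the female mean in 4 of 4 batches for each of these as well. The permutation p was 0.00525 for Hspb1, 0.0135 for Hspa5 and 0.155 for Hspa8. Of all genes, 0.0873% passed the sex test. The sex difference was not shown to change with rat batch: the limma interaction test over batches 3, 4 and 6 gave an adjusted p of 0.9999 for each member and called 0 of 17180 genes, while 506 had an unadjusted p under 0.05 and 1 was called with a pseudocount of 8 or with rat batch 2 included.

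The fourth question was whether the genes went up and down together between rats of the same batch. Pooled over the rat batches, they did for 4 of the 6 pairs. The measure was the correlation of each rat's deviations from the mean of its sex and rat batch, over 74 rats, with deviations permuted within these groups 100000 times, two-sided. Among these 4 pairs, Hspb1 and Hspa1b had a permutation p under 0.05 within rat batch 6 only. Hspa8 and Hspb1 had r = 0.173 (permutation p = 0.222) without that batch. With every gene fitted on 1 member in limma, between 0.361% and 1.92% of all genes were called with a positive slope. Over all 74 rats the ER chaperone and the constitutive cytosolic chaperone had the highest r of the 6 pairs. Hspa5 and Hspa8 had r = 0.664 (rho = 0.629, permutation p = 1e-05 for both), and r = 0.622 without the 2 rats farthest from the median of Hspa5. Hspa5 and Hspb1 had r = 0.581 (permutation p = 1e-05) and rho = 0.539 (permutation p = 4e-05), and r = 0.538 without the 2 farthest rats. The order of these 2 pairs rests on rat batch 4. Without that batch, r was 0.756 for Hspa5 and Hspb1 and 0.6785 for Hspa5 and Hspa8.

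Over all 74 rats the small heat shock protein gene was also correlated with both cytosolic HSP70 genes. Hspb1 and Hspa1b had r = 0.479 (permutation p = 0.00011) and rho = 0.443 (permutation p = 0.00027), and r = 0.365 without the 2 farthest rats or 0.276 without rat batch 6. Hspa8 and Hspb1 had r = 0.424 (permutation p = 0.00171) and rho = 0.380 (permutation p = 0.00224), and r = 0.440 without the 2 farthest rats, but 0.173 without rat batch 6. The inducible Hspa1b was not shown to follow the other HSP70 genes. Hspa5 and Hspa1b had r = 0.245 (permutation p = 0.0747) and rho = 0.229 (permutation p = 0.0723), and Hspa8 and Hspa1b had r = 0.196 (permutation p = 0.149) and rho = 0.133 (permutation p = 0.293). Without the 2 farthest rats these were r = 0.210 and r = 0.174. In every pair the 2 farthest rats were those of the gene named first, so none was chosen by its Hspa1b value.

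**Figure D4:**
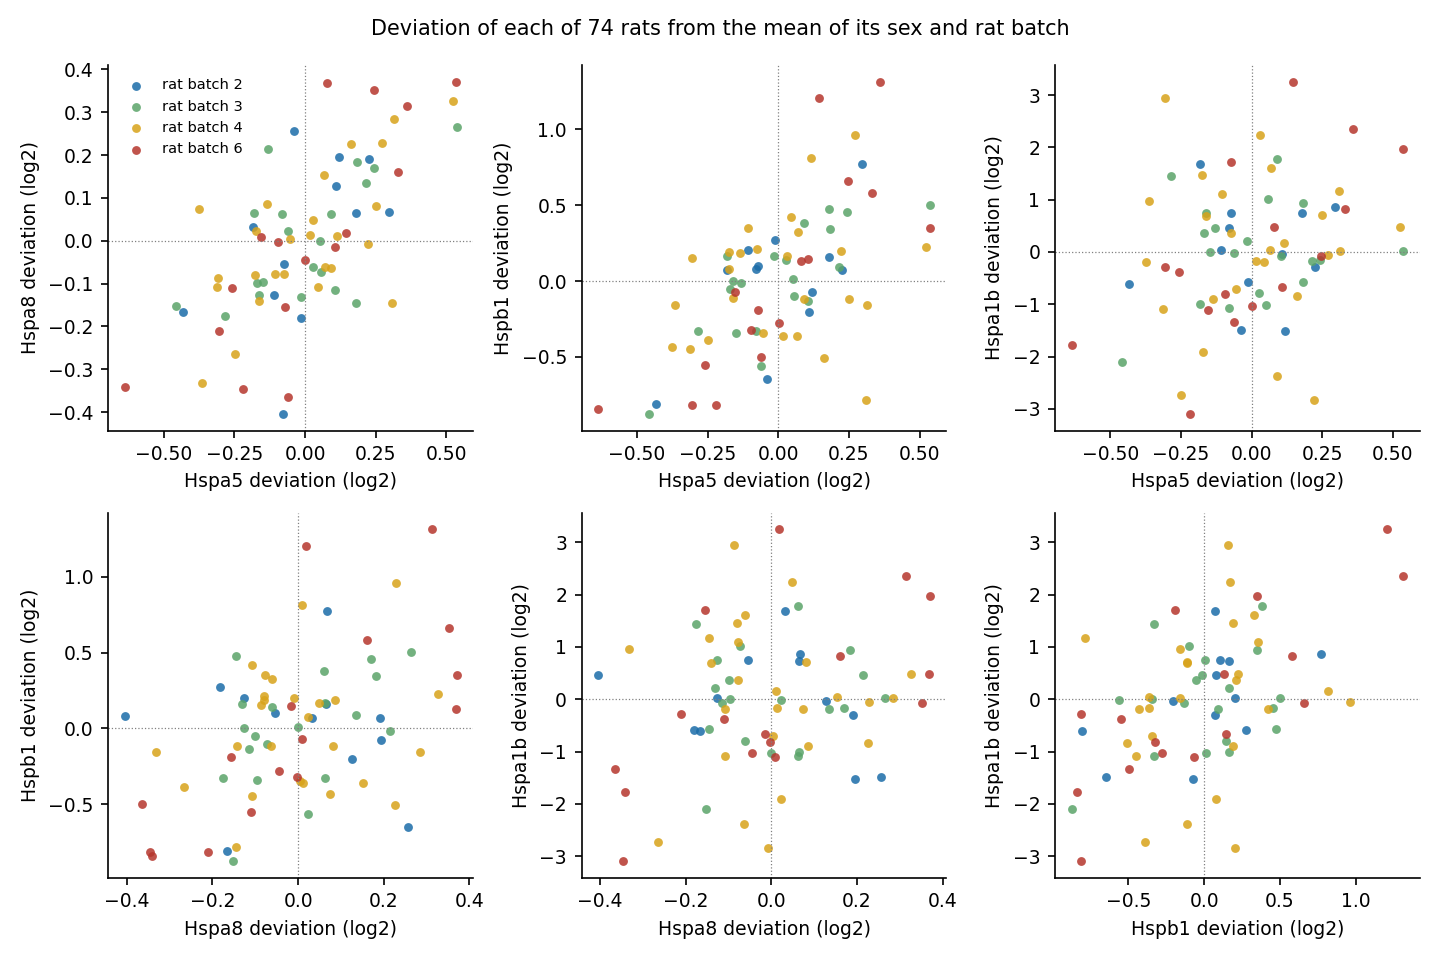
Deviation of each of 74 rats from the mean log2 value of its sex and rat batch, for the 6 pairs of genes, coloured by rat batch. Over all 74 rats, Hspa5 against Hspa8 has the highest r (0.664) and Hspa8 against Hspa1b the lowest (0.196). Without rat batch 4, Hspa5 against Hspb1 has a higher r (0.756) than Hspa5 against Hspa8 (0.6785). Axis ranges differ between panels.

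Set against all genes, with every gene fitted on 1 member in limma and adjusted over 17179 genes, the same pairs passed. Of all genes, 3.73% were called with Hspa5, 4.37% with Hspa8, 1.01% with Hspb1 and 0.396% with Hspa1b. The share called with a positive slope was 1.92%, 1.69%, 0.728% and 0.361% in the same order. With Hspa5 as the predictor, Hspa8 had an adjusted p of 4.57e-07 and Hspb1 of 5.53e-05 in limma, and they ranked 19 and 42 among all genes by positive r. Hspa5 in turn ranked 8 for Hspa8 and 6 for Hspb1. Hspb1 with Hspa1b as the predictor had a limma adjusted p of 0.0106 and ranked 41, whereas Hspa5 and Hspa8 ranked 704 and 1381 there with adjusted p = 0.489 and 0.617. With Hspb1 as the predictor of Hspa8 the limma adjusted p was 0.0381.

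Other genes tracked the members more closely than these did each other. The gene nearest to Hspa5 was ENSRNOG00000026963, with r = 0.867 (limma adjusted p = 1.92e-17), and the nearest to Hspa1b was ENSRNOG00000020770, with r = 0.668 (limma adjusted p = 3.47e-06), both over 74 rats. In the opposite direction, ENSRNOG00000005387 had the lowest r with Hspa8, -0.751 (limma adjusted p = 6.87e-10). These 3 identifiers were named after their values were seen, as the ends of rankings among genes whose mean log2 value reached 5.

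The correlations differed from batch to batch. In rat batch 6, all 6 pairs were positively correlated, from r = 0.604 for Hspa8 and Hspa1b to r = 0.808 for Hspa5 and Hspb1, with permutation p from 0.00032 to 0.0203 over 16 rats. Hspa5 and Hspa8 had a positive r in 4 of 4 batches and a permutation p under 0.05 in 3 of them, with r = 0.518 (n = 12, permutation p = 0.103), 0.584 (n = 20, permutation p = 0.00770), 0.639 (n = 26, permutation p = 0.00057) and 0.805 (n = 16, permutation p = 0.00032) in batches 2, 3, 4 and 6. Hspa5 and Hspb1 had r = 0.619, 0.766, 0.184 and 0.808 in the same order, with permutation p = 0.0473, 0.00031, 0.376 and 0.00094. By rank this pair had rho = 0.326 in batch 2 (permutation p = 0.318), so the call there rests on Pearson's r.

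In the 3 pairs with Hspa1b, a permutation p under 0.05 was found only in batch 6. Hspb1 and Hspa1b had r = 0.552, 0.312, 0.186 and 0.793, the last with a permutation p of 0.00055. Hspa5 and Hspa1b had r = 0.03, 0.181, -0.02 and 0.654, and Hspa8 and Hspa1b had r = -0.294, 0.07, -0.03 and 0.604. Hspa8 and Hspb1 had r = -0.121, 0.461, 0.167 and 0.755, and in batch 3 the permutation p was 0.0477 for r and 0.0708 for rho. With rat batch 6 left out, Hspb1 and Hspa1b had r = 0.276 (permutation p = 0.0490), Hspa8 and Hspb1 had r = 0.173 (permutation p = 0.222), Hspa5 and Hspa1b had r = 0.04 (permutation p = 0.793) and Hspa8 and Hspa1b had r = -0.05 (permutation p = 0.703). Hspa5 still had r = 0.588 with Hspa8 (permutation p = 2e-05) and r = 0.448 with Hspb1 (permutation p = 0.00081). Whether r in batch 6 differed from that in the other batches was not tested.

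**Figure D5:**
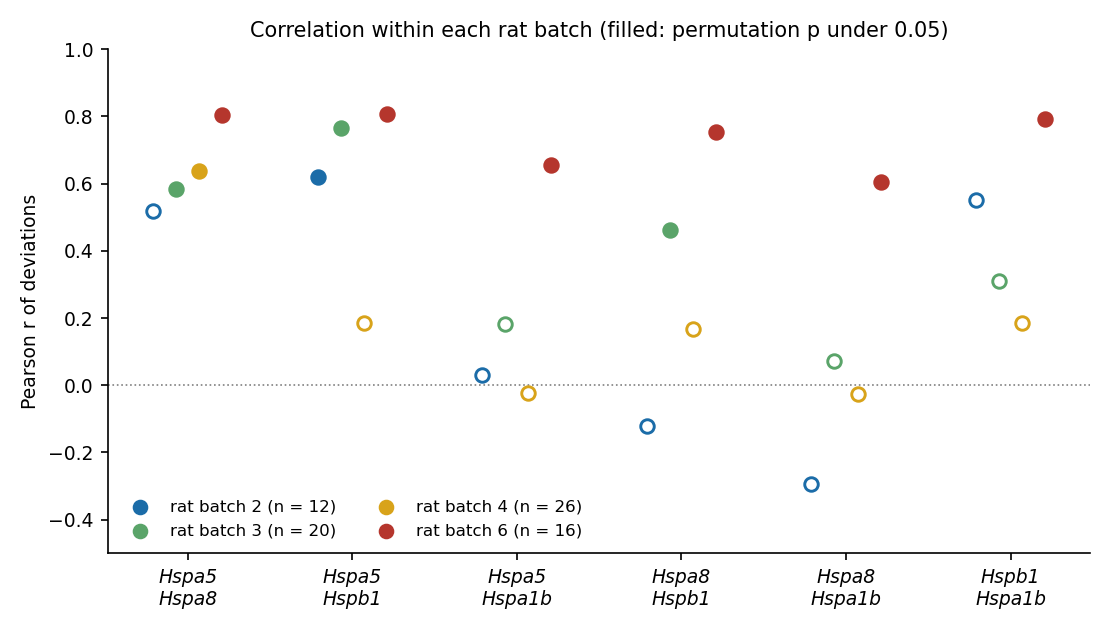
Pearson r of the deviations within each rat batch, for the 6 pairs of genes. Filled points have a permutation p of r under 0.05; by Spearman's rho, Hspa5 with Hspb1 in batch 2 and Hspa8 with Hspb1 in batch 3 do not. Rat batch 6 has the highest r of the 4 batches in every pair, from 0.604 to 0.808, and the pairs with Hspa1b are filled there only.

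Single rats stood at the same end for several genes. Female 3 of rat batch 3 had the highest scaled count of both Hspa5, 11104, and Hspa8, 13893, and ranked 4 for Hspb1, but only 25 for Hspa1b. Female 3 of rat batch 6 was lowest of 75 in Hspa5, at 4164, and ranked 73 in Hspa8, 74 in Hspb1 and 70 in Hspa1b. Female 6 of the same batch ranked 65, 74, 72 and 74 for Hspa5, Hspa8, Hspb1 and Hspa1b. The highest rat for Hspa1b, female 5 of rat batch 4, ranked 33, 37 and 32 for the other genes. Male 7 of rat batch 4, tied for the lowest Hspa1b, ranked 22, 49 and 37. In neither of these rats of batch 4 was any of the other genes as near to an end of its range as Hspa1b.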

How the data were processed

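Polyadenylated RNA of the nucleus accumbens core was sequenced, 1 library per rat. According to the study's methods, the authors trimmed single-end reads with cutadapt, estimated gene counts with RSEM on the Ensembl rat transcriptome and applied DESeq2 for an upper-quartile adjustment. The labels name Rnor_6.0. Deposited values are log2(scaled count + 1) for 17180 genes. Scaled counts were rounded, so each library's scaling factor, 0.708 to 2.18, could be searched between 0.55 and 2.5 and its total count recovered (median 17827324). Recovered counts served to state depth and counting error, which the reads, carrying no molecular identifiers, give for counting alone. Their totals also served in the alternatives, as a covariate and to pick the library with the lowest total.

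Log2 values were tested with limma 3.58.1 in R 4.3.3 (lmFit, eBayes with trend, Benjamini-Hochberg adjustment over all genes, threshold 0.05) on 74 libraries. Rat batch 5, with 1 library, was left out of the fits, and rat batch 2, with 2 females, out of the interaction. The limma tests of sex, rat batch and interaction were checked on simulated counts, with the same setting of variability for every gene. Permutations (100000) and correlations were run in Python 3.11.15 with scipy 1.17.1, on tables handled with numpy 2.4.6 and pandas 2.3.3. Plots were drawn with matplotlib 3.10.9. Rats are separate animals. The members, lists and tests were chosen with earlier results of these data known. Named genes were the members, and up to 5 genes with the highest and 3 with the lowest r for each member were to be named where they had a symbol. Lists of other chaperones and of cell type markers were not run, because the sources used here do not pair identifiers with symbols. No column of the table lacked a sample (0 columns). Alternatives were a minimum mean log2 value of 3, a pseudocount of 8 or of 0.1, quantile normalization, a rank-based transformation, other eBayes settings and covariates, the omission of single rat batches or of the library with the lowest total, and, chosen after seeing the data, the column run.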

Additional observations from a re-analysis of the deposited data

Results flagged for a closer look

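In the 8 males of rat batch 6, Hspb1 had a log2 value of 7.59 in male 4, while the other males lay between 5.73 and 6.43. The gap to the nearest male, 0.626 of the whole range of the group, marked this rat as far from the others. It was the only such case in 16 checks of a highest or lowest rat, where chance gives about 0.8.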

How the results depend on the processing

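Of 60 alternatives of the rat batch test, 54 left the members on the same side of the threshold. The exceptions were Hspa5 without rat batch 6 (limma adjusted p = 0.0677), Hspa1b without rat batch 2 (0.220), and the column run as a covariate, added after seeing the data, with 0.221 for Hspa5, 0.651 for Hspa8, 0.119 for Hspb1 and 0.536 for Hspa1b. That covariate leaves rat batch 3 to link batch 2 to batches 4 and 6. All 60 alternatives of the sex difference and all 20 of the interaction stayed past no threshold, with adjusted p from 0.0865 to 0.912 for Hspa1b between the sexes. Of 78 alternatives of the correlations, 73 gave the same call and sign. With group means left in, Hspa5 and Hspa1b had r = 0.427 and Hspa8 and Hspa1b r = 0.342. Without rat batch 4, Hspa5 and Hspa1b had r = 0.413. Without rat batch 6, Hspa8 and Hspb1 had r = 0.173 and Hspa8 and Hspa1b turned to r = -0.0544. The cause of these changes was not tested. The 12 alternatives of the levels moved by less than the SD between rats. The 16 alternatives of the spread moved by less than the SD of the spread among rat batches. No paired analysis was possible because numbers given to rats pair none of them. Lists of other chaperones and cell type markers were not run. Depth was not limiting for Hspa5 and Hspa8, and counting error took 8.21% of the variance of Hspb1.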
